A study of Mus musculus with 17 samples.

Results

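The 10 genes described here are the cytokine receptor chains Il2rb, Il2rg, Il7r, Il21r, Il10ra, Ifngr1, Il18r1 and Il18rap, the kinase Jak1 and the inhibitor Socs1, taken by gene name from 48709 genes in the deposited count table. They were measured by RNA sequencing in CD8+ T cells isolated from mouse brain and blood, 17 libraries in 4 groups. APP-PS1 brain had 4 libraries (3 male, 1 female), APP-PS1 blood had 3 (2 male, 1 female), WT brain had 5 and WT blood had 5, all 10 WT libraries being female. APP-PS1 stands for APP Swedish PS1 dE9, an amyloid model that carries a chimeric mouse and human mutant amyloid precursor protein and a mutant human presenilin 1. Both transgenes are driven by the prion protein promoter and directed to neurons of the central nervous system. The WT mice carry neither transgene as far as the labels say, the study describes its animals as aged, and the labels give no age in numbers. Strain and sex largely coincide and cannot be told apart. Brain was homogenized and cleared of myelin on Percoll, and red cells in blood were lysed, so tissue and preparation cannot be told apart either.

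Cytokines that signal through type I and type II receptors bring JAK kinases together on the receptor tails, and the kinases phosphorylate STAT factors that enter the nucleus. In CD8+ T cells the chain encoded by Il2rg, the common gamma chain, pairs with Il7r for interleukin-7, with Il2rb for interleukin-2 and interleukin-15, and with Il21r for interleukin-21; interleukin-7 maintains resting cells, and interleukin-15 memory cells. Ifngr1 binds interferon gamma, Il10ra binds interleukin-10, and Il18r1 with Il18rap forms the interleukin-18 receptor, which uses MyD88 in place of JAK kinases. SOCS1 is an inducible inhibitor that binds JAK kinases and limits signalling by common gamma chain cytokines and interferons.

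The libraries were shallow, with 27646 to 127707 counts in APP-PS1 brain, 39055 to 46336 in APP-PS1 blood, 51161 to 169903 in WT brain and 62604 to 214670 in WT blood. In the shallowest library 1 count is worth 36.2 CPM, the unit for counts scaled by the library's total. APP-PS1 brain replicate 1 and APP-PS1 blood replicate 1, the shallowest library of each group, had the lowest mean correlation with the other libraries. It was 0.639 and 0.669, against 0.697 to 0.806 for the rest. The highest value belonged to the deepest library, WT blood replicate 1, so these correlations moved with depth. All 10 T cell markers had counts in every group, with summed levels between 8676 and 12842 CPM per library, and Cd4 and Foxp3 had no count in any library. Neither had the NK cell marker Ncr1, while other NK markers had counts, given below with the interleukin-18 receptor. Of the 4 markers of CD4 and regulatory T cells, Il2ra had 16 counts in all and Ikzf2 had 113; Ikzf2 averaged 33.3 ± 38.2 CPM in APP-PS1 brain (n = 4), 32.4 ± 16.4 in APP-PS1 blood (n = 3), 139.5 ± 130.2 in WT brain and 36.0 ± 37.1 in WT blood (n = 5 each). It was not called in WT brain against blood (log2 difference 1.75 ± 0.69, adjusted p = 0.393). Of the 11 microglial markers, P2ry12, Tmem119, Sall1, Trem2 and C1qa were also at 0 in all libraries. Counts were found for 5 of the 11 in APP-PS1 brain, 3 in WT brain and 2 in each blood group. C1qb, C1qc and Aif1 had counts in APP-PS1 brain alone, where all 11 markers summed to 17 counts, and Csf1r in WT brain alone. In CPM per library, the summed gamma-delta T cell markers were 339.5 to 579 in APP-PS1 brain, 108 to 438 in APP-PS1 blood, 376 to 594 in WT brain and 192 to 446 in WT blood. Of these 5 markers, Trdc and Sox13 were at 0 in every group and 3 had counts. The summed B cell markers were 107 to 597, 170.3 to 345, 54.4 to 97.7 and 128 to 459 in the same order of groups, and those of monocytes and neutrophils 651 to 818, 563 to 1316, 489 to 1189 and 958 to 1471. Of the 8 matched monocyte and neutrophil markers, 2 to 3 had counts in each group, among them Ly6c2 and Ccr2. Fcgr3, S100a8, S100a9 and Cd14 were at 0 in every group. Over all groups the CD4 and regulatory T cell markers summed to 0 to 367, the microglial markers to 0 to 195 and the neuronal and glial markers to 0 to 196. Genes were tested with edgeR's quasi-likelihood F test over 2366 genes that passed a filter on low counts, and a gene was called at a Benjamini-Hochberg adjusted p under 0.05. The filter kept 8 of the 10 genes; Il10ra and Il21r fell below it and were fitted with a lower filter.

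Of these genes, Socs1 was the one called, higher in brain than in blood. In APP-PS1 mice it was 2.95 ± 0.75 higher on the log2 scale in brain than in blood (SE), where 0.549% of all tested genes were called. Averaged over both strains it was 1.92 ± 0.43 higher, where 2.58% were called. The APP-PS1 call rests on 4 counts in blood and was lost when some single libraries were left out. Without both APP-PS1 brain replicate 1 and APP-PS1 blood replicate 1, neither call held. No receptor chain and no change in Jak1 passed the test in any comparison. No gene of the set was called between APP-PS1 and WT mice in either tissue, where 0% of all tested genes were called in brain and 0.0423% in blood.

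Socs1 lies on chromosome 16 at 10782240 to 10785536 on the minus strand (GRCm38). Its promoter is shown because it belongs to the gene that was called and because interferon-responsive factors bind motifs made of GAAA and GAAA with 2 bases between them. The RefSeq table used here, build GRCm38.p6, gives 250 bases before the start and 50 after it, at chr16:10785487-10785786 on the minus strand, written 5′ to 3′ with bases inside a match to that motif in capitals.
Socs1 promoter: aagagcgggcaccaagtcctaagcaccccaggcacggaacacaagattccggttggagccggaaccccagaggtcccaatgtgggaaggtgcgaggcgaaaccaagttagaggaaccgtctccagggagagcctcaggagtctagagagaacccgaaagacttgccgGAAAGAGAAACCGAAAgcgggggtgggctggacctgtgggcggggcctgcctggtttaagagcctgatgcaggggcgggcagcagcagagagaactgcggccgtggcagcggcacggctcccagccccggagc
The capitals hold 2 overlapping matches, 83 to 74 and 77 to 68 bases before the start. On both strands together the motif occurs in 1131 of 32851 promoters in the table (3.44%). The table had an entry for 8 of the 10 genes, and Socs1 was the one with this motif. A match describes the letters of the sequence and is not a measured binding site. The palindromic motif TTCNNNGAA, the form bound by STAT5 and other STAT factors, was found in 8.30% of the promoters, among them Il7r, with 1 match 142 to 134 bases before its start, and Il18r1, with 2 matches, 219 to 211 and 152 to 144 bases before 1 of its 3 listed starts.

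**Figure D1:**
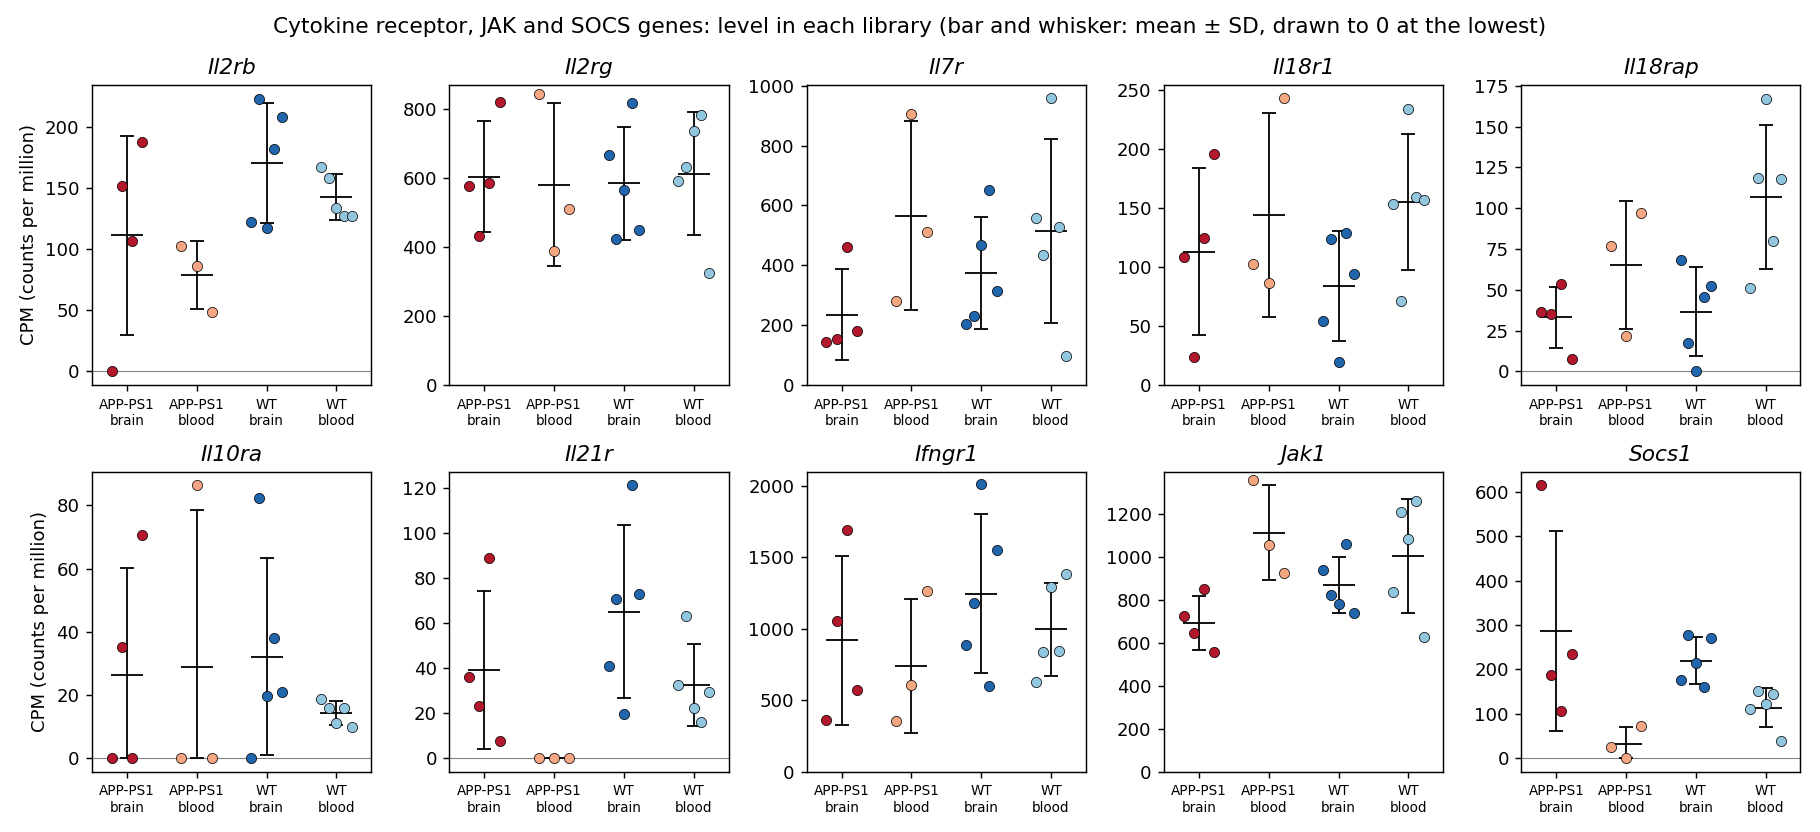
Level of each of the 10 genes in CPM (vertical axis, linear, a separate scale per gene) in every library of the 4 groups; each point is 1 library, and the bar and whisker give mean ± SD, with the lower whisker stopped at 0. Socs1 points lie higher in brain than in blood in both strains without overlap, whereas Il2rg and Ifngr1 points overlap between all groups.

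Per transcript length the receptors and the kinase kept much the same order in all groups. On a TPM scale (counts per annotated exon length, scaled to the same sum in every library), Ifngr1 had the highest mean level in each group, followed by Il2rg. In WT brain Ifngr1 averaged 872 ± 422 TPM, Il2rg 483 ± 135, Jak1 237 ± 34.2, Il7r 159 ± 81.1 and Socs1 149 ± 35.2 (SD, n = 5). Lower in the same group were Il2rb at 78.1 ± 20.7, Il21r at 38.1 ± 22.2, Il18r1 at 33.9 ± 18.6, Il10ra at 18.05 ± 17.3 and Il18rap at 10.5 ± 7.83 TPM. Neighbours in that order often lay within their spread, as Il7r and Socs1 did, and so did the 3 genes Il21r, Il18r1 and Il10ra. Socs1 moved in rank: of the 10 genes it was number 3 in APP-PS1 brain with 196 ± 157 TPM (n = 4), number 7 in APP-PS1 blood with 22.1 ± 25.2 TPM (n = 3), and number 5 in both WT groups, with 149 ± 35.2 TPM in WT brain and 72.8 ± 27.95 TPM in WT blood (n = 5 each).

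The common gamma chain Il2rg, on chromosome X at 101264378 to 101268255, averaged 605 ± 161 CPM in APP-PS1 brain (n = 4), against 581 ± 236 CPM in APP-PS1 blood (n = 3). In WT mice its mean was 585 ± 163 CPM in brain, against 613 ± 179 CPM in blood (n = 5 each). Its brain over blood difference was 0.090 ± 0.35 on the log2 scale in APP-PS1 mice and -0.13 ± 0.26 in WT mice (SE), with approximate 95% intervals of -0.59 to 0.77 and -0.65 to 0.39; a test that misses its threshold within such intervals does not show that the tissues are alike. The annotation places the predicted gene Gm20489 over the same stretch, and with the strand setting of the counting not known here, reads of both cannot be told apart with certainty.

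Il7r, on chromosome 15, encodes the interleukin-7 receptor alpha chain, a chain typical of naive and memory cells. It had 145, 152, 462 and 180.1 CPM in APP-PS1 brain, against 282, 906 and 511 CPM in APP-PS1 blood. In WT brain it had 204, 230, 469, 653 and 313 CPM, against 559, 435, 959, 527 and 98.2 CPM in WT blood. In all, 3 of the 4 APP-PS1 brain libraries lay below every APP-PS1 blood library, while replicate 3, with 26 counts, lay between them; in WT mice the tissues overlapped widely, and WT blood replicate 5 was the lowest of all 17 libraries. The difference of brain against blood was -1.32 ± 0.62 on the log2 scale in APP-PS1 mice (adjusted p = 0.454), -0.53 ± 0.46 in WT mice (adjusted p = 0.863) and -0.93 ± 0.38 averaged over strains (adjusted p = 0.278), none of them called. The average over strains turned on 1 library: without WT blood replicate 5 it was -1.06, with an adjusted p of 0.0194.

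Markers of naive T cells, which express Il7r, differed between the tissues. The summed level of 9 such markers was 444 to 868 CPM in APP-PS1 brain, against 3139 to 3906 CPM in APP-PS1 blood, and 409.7 to 671 CPM in WT brain, against 1031 to 2891 CPM in WT blood. All 8 naive markers that passed the filter were called lower in brain averaged over strains, where 1.31% of all tested genes were called lower, with a median log2 fold change of -2.65, against 0.033 over all tested genes, and Igfbp4 was at 0 in both brain groups. A marker could pass the filter through blood libraries alone, so the count of 8 may be partly fixed by it and is no test against that share. WT blood replicate 5, lowest for Il7r, also had the lowest naive marker sum of the blood libraries (1031 CPM) and the highest Gzma, a cytotoxic granule gene named after its values were seen (2131 CPM, against 108 to 639 in the other blood libraries). Of the naive markers, Ccr7 was also the 1 gene called in APP-PS1 blood against WT blood, at 2.56 ± 0.51 higher (adjusted p = 0.0156). That call depended on the fit. No gene was called higher in this comparison with sex added as a term, with the lower filter, or with DESeq2 in place of edgeR. Outside the naive list, the T cell gene Cd3g was called higher in brain averaged over strains, by 0.65 ± 0.18 (adjusted p = 0.0374). The B cell gene Igkc was called lower in WT brain than in WT blood, at -2.12 ± 0.53 (adjusted p = 0.0305). In APP-PS1 mice its difference had the opposite sign, at 3.435 ± 0.97, and was not called (adjusted p = 0.0744). Igkc was the 1 gene whose tissue difference differed between strains, by 5.56 ± 1.09 (adjusted p = 0.00995), and DESeq2 called no gene in that comparison. The part of these markers in the Il7r values was not tested. In bulk samples fewer cells of a type and less RNA per cell cannot be told apart.

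Il2rb, also on chromosome 15, encodes the beta chain shared by the receptors for interleukin-2 and interleukin-15. It ranged from 0 to 188 CPM in APP-PS1 brain, with a mean of 112 ± 81.6 (n = 4), against 48.7 to 102 CPM in APP-PS1 blood, with a mean of 79.1 ± 27.6 (n = 3). In WT brain it ranged from 117 to 224 CPM with a mean of 171 ± 48.9, against 128 to 168 CPM with a mean of 143 ± 18.6 in WT blood (n = 5 each). The tissues overlapped in both strains, and the differences of brain against blood were 0.70 ± 0.64 and 0.21 ± 0.41 on the log2 scale in APP-PS1 and WT mice (adjusted p = 0.768 and 0.979). Within libraries the ratio of Il7r to Il2rb counts was 1.53 over the APP-PS1 brain libraries together (66 to 43 counts), against 7.40 in APP-PS1 blood (74 to 10 counts). It was 2.00 in WT brain (194 to 97 counts) and 3.42 in WT blood (304 to 89 counts). Single libraries overlapped in both strains, for example from 0.958 to 4.33 in APP-PS1 brain, where 1 library had no Il2rb count and gives no ratio, and from 2.75 to 10.5 in APP-PS1 blood.

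Il21r, the specific chain for interleukin-21 on chromosome 7, was close to the limit of detection. It had 1, 2, 5 and 1 counts in the APP-PS1 brain libraries and 0 in each of the 3 APP-PS1 blood libraries. The WT brain libraries had 3, 12, 1, 16 and 7 counts, and the WT blood libraries had 7, 8, 2, 1 and 3. Every APP-PS1 brain library therefore lay above every APP-PS1 blood library, though the blood libraries together allow up to 23.7 CPM, the level of 3 counts over the group, and 5.07% of the 2366 genes of the main filter lay higher in APP-PS1 brain without overlap. The 9 counts of APP-PS1 brain together stood 1.28-fold above that floor. This leaves out the counting error of those 9 counts, so it is no lower bound on the difference. Il21r was not called (adjusted p = 0.586 over 10167 genes in the fit with the lower filter, in which 0.157% of genes were called). In WT mice the tissues overlapped, at 65.1 ± 38.5 CPM in brain and 32.7 ± 18.3 CPM in blood (SD, n = 5 each), with a log2 difference of 0.87 ± 0.77 (adjusted p = 0.919, with 0.167% of genes called in that fit).

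Among the chains of type II receptors, Ifngr1 was abundant and Il10ra scarce. Ifngr1, the ligand-binding chain for interferon gamma on chromosome 10, had 1510 counts over all libraries, the most of the 10 genes. It had 362, 1054, 1689 and 572 CPM in APP-PS1 brain, against 358, 604 and 1265 CPM in APP-PS1 blood. It had 885, 1183, 2013, 599 and 1555 CPM in WT brain, against 629, 838, 1293, 847 and 1385 CPM in WT blood. Libraries of 1 group differed severalfold and all groups overlapped; the difference of brain against blood was 0.31 ± 0.52 on the log2 scale in APP-PS1 mice and 0.25 ± 0.40 in WT mice, neither called. Over the 17 libraries the log2 level of Ifngr1 moved with the share of counts taken by Actb, the cytoskeletal actin gene, which ranged from 2.24% to 14.7% (Pearson r = 0.723, Spearman rho = 0.711, and r = 0.675 over the 15 libraries left without the 2 farthest in that share). This is a description over libraries that share strain, tissue and sex groups, both values come from the same count totals, and the part of that share in the Ifngr1 values was not tested. For the other 9 genes r lay between -0.582, for Il2rg, and 0.0654, for Il2rb. The genes with the pattern most like that of Ifngr1 over the 17 libraries were Sephs2, a selenophosphate synthetase (r = 0.91), Snd1 (r = 0.89) and Tnrc6b, a factor of microRNA silencing (r = 0.88).

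The partner chain Ifngr2 had 14 counts over all libraries, and none in APP-PS1 brain. Il10ra, the ligand-binding chain for interleukin-10 on chromosome 9, had 0, 3, 0 and 9 counts in the APP-PS1 brain libraries and 0, 4 and 0 in the APP-PS1 blood libraries. It had 0, 14, 1, 5 and 2 counts in WT brain, against 4, 2, 1, 1 and 1 in WT blood. All of these ranges overlap, and no difference between tissues or strains was detectable at this depth (log2 difference of brain against blood 0.23 ± 1.22 in APP-PS1 mice and 1.12 ± 0.95 in WT mice). Gm20612, on the opposite strand, and Mir7086 overlap Il10ra in the annotation.

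The interleukin-18 receptor genes lie side by side on chromosome 1, Il18r1 at 40465552 to 40500854 and Il18rap at 40515362 to 40551705, both on the plus strand. Il18r1, the ligand-binding chain, averaged 113 ± 70.8 CPM in APP-PS1 brain (n = 4), against 144 ± 86.4 CPM in APP-PS1 blood (n = 3). In WT mice its mean was 84.1 ± 46.7 CPM in brain, against 155 ± 57.7 CPM in blood (n = 5 each), and the tissues overlapped. Il18rap, the accessory chain needed for signalling, had 36.2, 35.1, 53.3 and 7.83 CPM in APP-PS1 brain, against 76.8, 21.6 and 97.3 CPM in APP-PS1 blood. It had 68.1, 17.7, 0, 45.5 and 52.2 CPM in WT brain, against 51.2, 119, 167, 79.9 and 118 CPM in WT blood. In WT mice 4 of the 5 blood libraries lay above every brain library, and the lowest blood library fell within the brain range. Il18rap met the filter of about 117 CPM in 3 libraries through WT blood alone, so a lower value in WT brain is partly fixed by the filter. With each of the 17 libraries left out in turn, it passed the filter in 8 refits. The log2 difference of Il18rap, brain against blood, was -1.07 ± 1.02 in APP-PS1 mice (adjusted p = 0.783) and -1.54 ± 0.69 in WT mice (adjusted p = 0.542). Il18r1 differed by -0.30 ± 0.64 in APP-PS1 mice (adjusted p = 0.924) and by -0.82 ± 0.47 in WT mice (adjusted p = 0.758). None was called. NK cells also express this receptor. The 8 NK markers summed to 17.8 to 313 CPM in APP-PS1 brain, against 64.7 to 154 CPM in APP-PS1 blood, and to 39.1 to 271 CPM in WT brain, against 95.8 to 427 CPM in WT blood. Of the 8, 7 had counts in WT blood, 5 in APP-PS1 blood and 3 in each brain group, and Ncr1 was at 0 throughout. The part of NK cells in the Il18r1 and Il18rap values was not tested.

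Jak1, on chromosome 4 at 101152367 to 101265282, encodes the kinase used by all of the JAK-coupled receptors above. It had 723, 644, 853 and 556 CPM in APP-PS1 brain, against 1357, 1057 and 925 CPM in APP-PS1 blood. In WT mice it had 939, 824, 782, 1062 and 741 CPM in brain, against 838, 1209.9, 1081, 1262 and 629 CPM in blood. Every APP-PS1 brain library lay below every APP-PS1 blood library, while the WT tissues overlapped. The log2 difference of brain against blood was -0.71 ± 0.30 in APP-PS1 mice (adjusted p = 0.367), -0.26 ± 0.23 in WT mice (adjusted p = 0.865) and -0.48 ± 0.19 averaged over strains (adjusted p = 0.179). Jak1 was thus not called, and groups that lie apart in this way are common in the APP-PS1 comparison, where 3.97% of tested genes lay lower in brain without overlap. Part of the gene overlaps Raver2 and Gm24468, on the opposite strand, and Gm12785.

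Socs1 had 17, 16, 6 and 30 counts in the APP-PS1 brain libraries, or 615, 187, 107 and 235 CPM. In APP-PS1 blood it had 1, 0 and 3 counts, or 25.6, 0 and 73.0 CPM. In WT brain it had 177, 277, 215, 159 and 271 CPM, against 112, 150.3, 123, 144 and 39.3 CPM in WT blood. All brain libraries lay above all blood libraries within each strain, and the lowest value of the 9 brain libraries, 107 CPM, lay below that of 4 of the 5 WT blood libraries. A gene higher in brain without overlap in both strains was uncommon among the tested genes, with 14 of 2366 (0.592%); within single strains the shares were 5.07% in APP-PS1 and 1.48% in WT mice.

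In APP-PS1 mice, 1 of the 8 tested genes of the set was called, Socs1, at a log2 difference of 2.95 ± 0.75 (approximate 95% interval 1.48 to 4.41, adjusted p = 0.0443), where 0.549% of all tested genes were called. In WT mice the difference was 0.90 ± 0.42 (interval 0.080 to 1.72), the adjusted p was 0.580, and 0 of the 8 genes were called against 0.761% of all. At an unadjusted p under 0.05, 2 of the 8 passed, Socs1 and Il18rap, where 7.23% of all tested genes did. Il18rap met the filter through WT blood libraries alone, so its pass is partly fixed by the filter and is no test against that share. Averaged over strains Socs1 was called at 1.92 ± 0.43 (interval 1.08 to 2.77, adjusted p = 0.00389), the 1 call among the 8, where 2.58% of all were called. The median log2 fold change of the 8 tested genes was -0.10 in APP-PS1 mice and -0.20 in WT mice, against 0.036 and 0.016 over all tested genes. The difference of the Socs1 effect between strains, 2.05 ± 0.89, was not called (adjusted p = 0.940, with 0.0423% of all genes called), so the larger value in APP-PS1 mice is not shown to differ from that in WT mice.

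The call in APP-PS1 mice rests on 4 counts in blood, and it was lost when either shallow library was left out: without APP-PS1 brain replicate 1 the adjusted p was 0.113, and without APP-PS1 blood replicate 1 it was 0.162. It was also lost without APP-PS1 blood replicate 2 (adjusted p = 0.239), without APP-PS1 brain replicate 4 (0.0675), WT brain replicate 1 (0.0515) or WT blood replicate 3 (0.0536). With both shallow libraries left out, a setting chosen after seeing the data, Socs1 was 2.33 higher in APP-PS1 brain than blood (adjusted p = 0.313) and 1.61 higher averaged over strains (adjusted p = 0.0544). In the averaged comparison Socs1 stayed called with any 1 of the 17 libraries left out, with adjusted p between 0.00187 and 0.0347. In female libraries alone, with 1 APP-PS1 library per tissue, the averaged difference was 1.31 and not called (adjusted p = 0.424). Red cell and platelet markers moved with tissue as well, at 36.2 to 368 CPM in APP-PS1 brain, against 2970 to 8223 CPM in APP-PS1 blood, and at 156 to 888 CPM in WT brain, against 2152 to 9999 CPM in WT blood; their part, and that of the naive markers, in the Socs1 values was not tested.

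**Figure D2:**
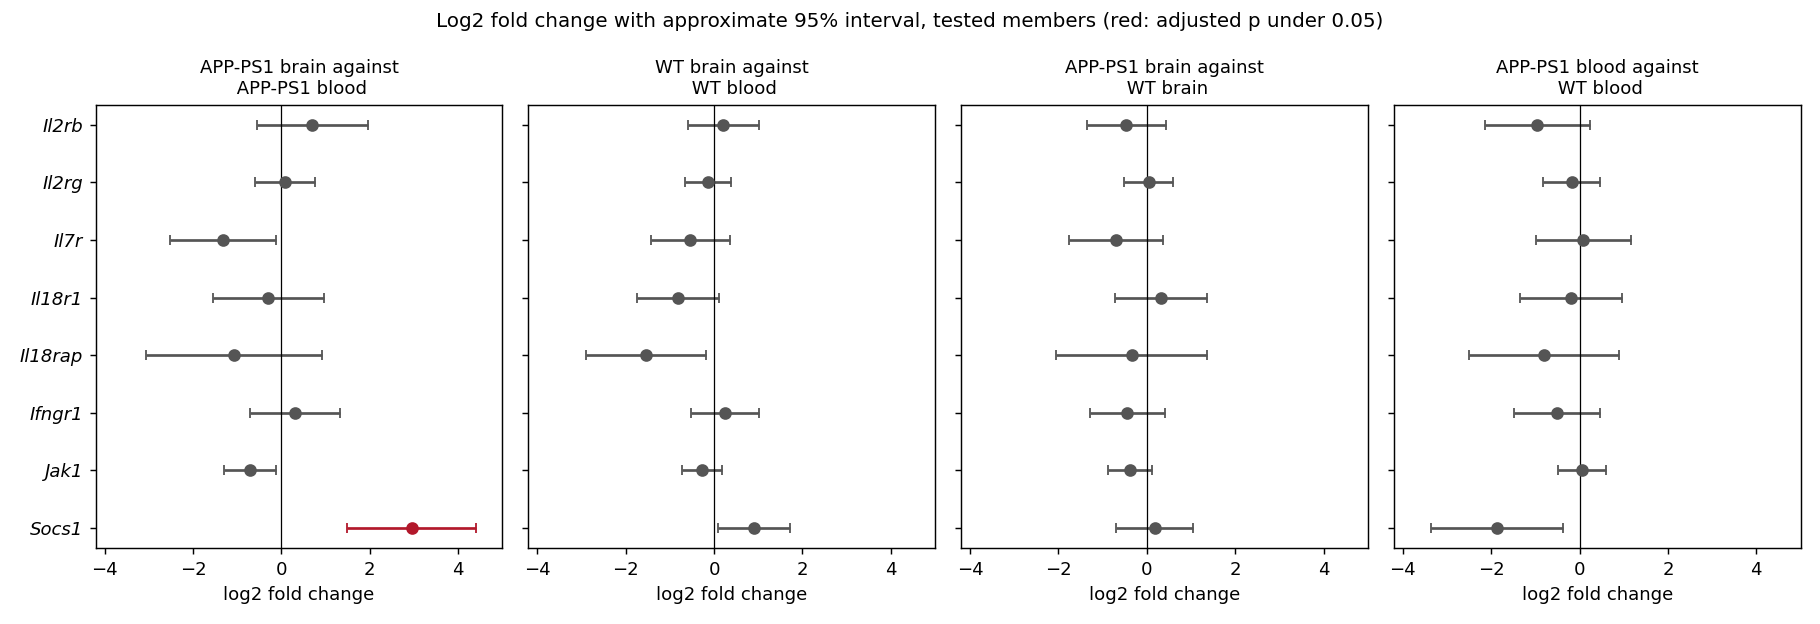
Log2 fold change (horizontal axis) of the 8 tested genes (rows) in 4 comparisons (panels), each point the edgeR estimate with its approximate 95% interval; red marks an adjusted p under 0.05. Socs1 in APP-PS1 brain against APP-PS1 blood, at 2.95, is the single red point.

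Set against the kinase it inhibits, Socs1 was counted more often in brain within single libraries, a ratio that does not depend on the library's total. The APP-PS1 brain libraries held 69 Socs1 and 194 Jak1 counts together, a ratio of 0.356, against 4 and 140 counts in APP-PS1 blood, a ratio of 0.0286. The WT brain libraries held 118 and 460 counts, a ratio of 0.257, against 67 and 573 counts in WT blood, a ratio of 0.117. By library the ratio was 0.125 to 0.850 in APP-PS1 brain, against 0 to 0.0789 in APP-PS1 blood, and 0.150 to 0.366 in WT brain, against 0.0625 to 0.133 in WT blood, so brain and blood did not overlap in either strain. The ratio reuses the Socs1 counts given above and is no separate observation of them. In APP-PS1 mice every brain library was higher for Socs1 and lower for Jak1 than any blood library, so the lack of overlap was fixed in advance. The share of other gene pairs that lie apart in this way was not computed. The ratio shows an unequal change of both genes and does not say which of them moved.

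**Figure D3:**
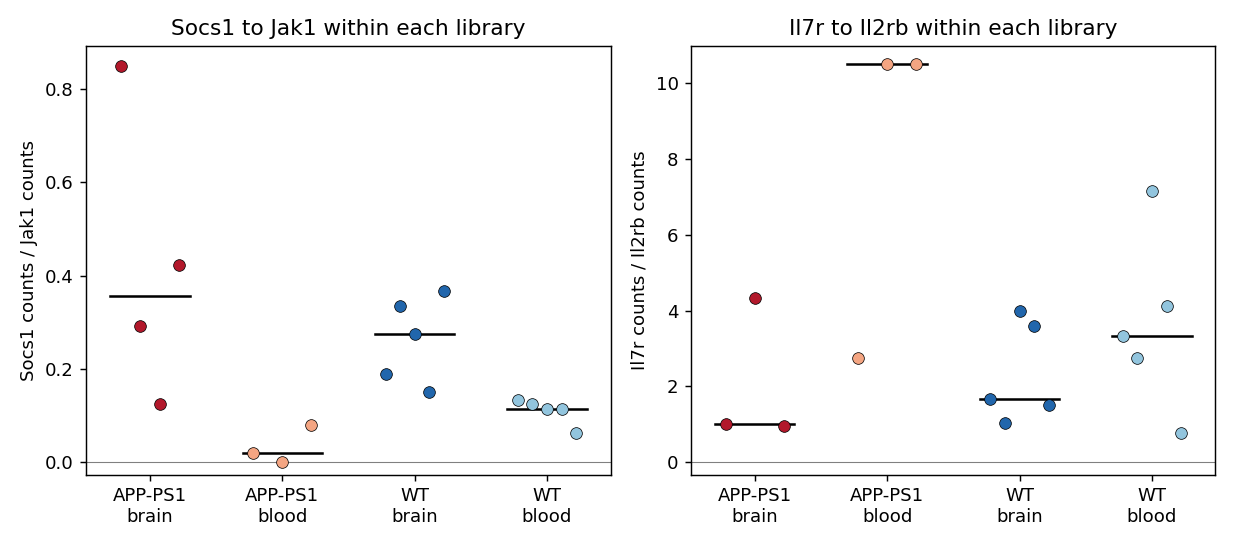
Ratio of Socs1 to Jak1 counts (left) and of Il7r to Il2rb counts (right) within each library (vertical axes, linear), by group; each point is 1 library and the line is the median. Socs1 to Jak1 is higher in every brain library than in any blood library of the same strain, while Il7r to Il2rb overlaps.

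The genes whose pattern over the 17 libraries was most like that of Socs1 were Mndal, an interferon-inducible gene (Pearson r = 0.80), Rnf115, a ubiquitin ligase (r = 0.78), and Pdcd1, the gene of the inhibitory receptor PD-1 (r = 0.76). Pdcd1 counts summed to 34 in APP-PS1 brain, against 0 in APP-PS1 blood, and to 56 in WT brain, against 23 in WT blood. Rnf115 was likewise at 0 in APP-PS1 blood, against 29 counts in APP-PS1 brain. The libraries share depth and tissue, so these values describe likeness only.

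Between strains no gene of the set was called in brain. The log2 differences of APP-PS1 brain against WT brain lay between -0.70, for Il7r, and 0.33, for Il18r1, over the 8 tested genes, each with an adjusted p of 0.999. Over all 2366 genes 0 were called in this comparison (0%), by edgeR and by DESeq2 alike, and 99 had an unadjusted p under 0.05, none of them among the 8. Socs1 differed by 0.17 ± 0.44, with an interval of -0.69 to 1.04, which leaves room for differences of either sign.

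In blood, 0 of the 8 genes were called between APP-PS1 and WT mice, where 0.0423% of all tested genes were. The log2 difference of Socs1 was -1.87 ± 0.76 (adjusted p = 0.496), with 0 to 73.0 CPM in APP-PS1 blood and 39.3 to 150.3 CPM in WT blood, so the groups overlapped. Il2rb lay lower in every APP-PS1 blood library (48.7 to 102 CPM) than in any WT blood library (128 to 168 CPM), at -0.95 ± 0.60 (adjusted p = 0.714); 3.68% of tested genes lay lower without overlap in this comparison. Il21r had 0 counts in APP-PS1 blood and 21 in WT blood. The floor of 3 counts over APP-PS1 blood lay 1.49-fold below the WT blood level, with the counting error of those 21 counts left out. Il21r was not called (adjusted p = 0.589, with 0.0689% of genes called in the fit with the lower filter). The brain and blood comparisons share libraries with those between strains, since each group enters both.

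The lists of other pathway genes, fixed with earlier results of these data known, held 94 genes, of which 31 passed the filter. Averaged over strains, 2 of those 31 were called, against 2.58% of all tested genes. Both belong to the 13 listed targets of STAT5, the factor used by common gamma chain cytokines, of which 7 were tested. Ccnd2, a cyclin that promotes entry into the cell cycle, was higher in brain by 0.82 ± 0.21 on the log2 scale (adjusted p = 0.0174), with 1258 ± 371 CPM in APP-PS1 brain (n = 4), against 531 ± 226 CPM in APP-PS1 blood (n = 3), and 1223 ± 329 CPM in WT brain, against 902 ± 268 CPM in WT blood (n = 5 each). Pim1, a survival kinase, was lower in brain by the same test, at -0.77 ± 0.21 (adjusted p = 0.0309), with 647 ± 154 CPM in APP-PS1 brain (n = 4), against 979 ± 564 CPM in APP-PS1 blood (n = 3), and 642 ± 249 CPM in WT brain, against 1159 ± 271 CPM in WT blood (n = 5 each). Bcl2, a survival gene in the same list, differed by 0.16 ± 0.23 and was not called. The 7 tested targets thus held 1 gene called in each direction, with a median of 0.37 against 0.033 over all tested genes.

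Of 18 other inhibitors of the pathway 5 were tested and 0 called, in a comparison that called 2.58% of all tested genes. Cish, a further member of the SOCS family and also listed as a STAT5 target, averaged 104 ± 59.9 CPM in APP-PS1 brain (n = 4), against 45.9 ± 39.97 CPM in APP-PS1 blood (n = 3). It averaged 214 ± 28.5 CPM in WT brain, against 63.8 ± 24.5 CPM in WT blood (n = 5 each), where the groups did not overlap, as for 1.48% of all tested genes higher in WT brain. The highest blood value of Cish was 97.8 CPM, so it met the filter of about 117 CPM through brain libraries alone. A higher value in brain is thus partly fixed by the filter and is no test against that share. The difference of Cish averaged over strains, 1.42 ± 0.43, was not called (adjusted p = 0.0559), and neither was that in WT mice, 1.57 ± 0.46 (adjusted p = 0.0978). Ptpn1 and Ptprc, phosphatases that act on JAK kinases, differed by -0.64 ± 0.40 and 0.038 ± 0.19 averaged over strains.

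Of 10 other JAK and STAT genes 3 were tested and 0 called; Stat3 differed by 0.39 ± 0.31 and Stat4 by -0.025 ± 0.45 averaged over strains. The listed target genes of interferon gamma had 14 of 21 genes tested and 0 called (2.58% over all tested genes); 13 of the 14 had positive values averaged over strains, with a median of 0.35 against 0.033 over all tested genes. Their most abundant members, which serve antigen presentation, were not called: B2m differed by 0.074 ± 0.15 and Psmb8 by 0.18 ± 0.17, and Tapbp, at -0.38 ± 0.22, was the one of the 14 with a negative value. Of 19 other receptor chains 3 were tested and 0 called, with Il27ra at -0.59 ± 0.40, Ifnar1 at 0.37 ± 0.60 and Il10rb at 0.45 ± 0.37. Of 10 adaptors of the interleukin-18 and interleukin-1 receptors Tab2 alone was tested, at 0.40 ± 0.59.

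None of the 7 listed ligands passed the filter. Il2 had 60 counts over all libraries and Ifng 54, while Il7 had 7, Il18 had 2, and Il15, Il10 and Il21 had 0.

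**Figure D4:**
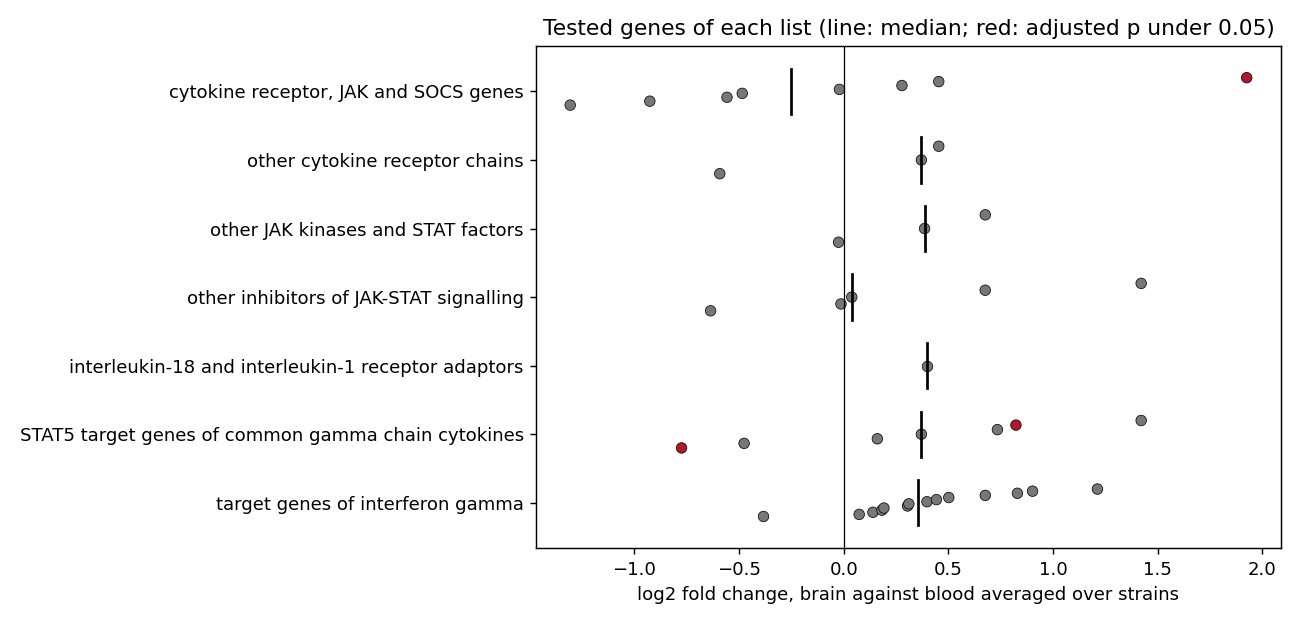
Log2 fold change of brain against blood averaged over strains (horizontal axis) for each tested gene (point) of the receptor, JAK and SOCS genes and of the listed pathway groups (rows); the line is the median and red marks an adjusted p under 0.05. The red points are Socs1 at 1.92, Ccnd2 at 0.82 and Pim1 at -0.77.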

How the data were processed

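Brain and blood CD8+ T cells of both strains were studied by RNA sequencing. The table deposited by the authors holds raw, whole-number counts for each gene in each library. GRCm38 as build and HTSeq 0.11.2, Bowtie2 2.2.2, FastQC and DESeq2 as tools are listed, without roles, by the submitters' processing notes; strand setting and use of molecular identifiers were not known here. The series' design states 7 transgenic and 10 WT mice; the labels do not say which mouse gave which library, and none pairs brain with blood, so p-values measure the spread between libraries. Over 29 same-group pairs, chi-square per degree of freedom was 2.59 to 5.69 and 0 pairs were identical.

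Counts were fitted with edgeR 4.0.16 in R 4.3.3 (library sizes from all counts, TMM, filterByExpr at about 117 CPM in at least 3 libraries, robust quasi-likelihood F test, 1 mean per group over all 17 libraries) after a test on simulated data. P-values were adjusted by Benjamini-Hochberg over all genes tested in each of 6 comparisons. The standard error is the absolute log2 fold change over the square root of F, and the 95% interval is approximate. Il10ra and Il21r were fitted with a filter of 5 CPM in at least 3 libraries (10167 genes). Floors are 3 counts over a group and cover counting error only. Of the 48709 genes, 48349 matched GENCODE M21, which gave coordinates and exon lengths; 183 of 184 listed symbols matched. Figures were drawn with matplotlib 3.10.9.

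The genes and lists were chosen with earlier results of these data known. All 10 genes are named in full; from the other lists, genes called in any comparison and the 3 tested genes with the highest mean CPM are named, except 1 that is not reported here; for the gene with the most counts and each called gene, the 3 most correlated genes are named. Cell type markers are given by their summed CPM and the genes called. Alternatives were RLE normalization, a non-robust fit, other filters, sex as a term, female libraries, the compared groups alone, DESeq2 1.42.0, each library left out, and both shallow libraries left out.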

Additional observations from a re-analysis of the deposited data

Results flagged for a closer look

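Il7r in APP-PS1 brain replicate 3 stood far from the other libraries of its group, at 462 CPM (26 counts) against 145 to 180.1 CPM in the other 3. Its gap to the nearest library was 0.888 of the group's range, above Dixon's 95% critical value of 0.829. Of 30 groups of values looked at in this way this was the 1 that stood out. Chance alone flags about 1 in 20 such groups, so 1 flag among 30 is not above that share.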

How the results depend on the processing

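Over 60 fold changes of the 10 genes and 1466 refits, 1378 kept their direction and side of the threshold, 75 changed sign, 12 lost a call and 1 gained one. The count of genes called in APP-PS1 brain against blood was 1, and it was 0 with a non-robust fit (Socs1 adjusted p = 0.0519), no filter (0.0593), female libraries alone (0.648), only the groups compared, where Socs1 did not pass the filter, and both shallow libraries left out; it was 0 to 1 when each library was left out in turn. Socs1 stayed called there with RLE normalization (adjusted p = 0.0467), sex as a term (0.0402), the 5 CPM filter (0.0378) and DESeq2 (0.0230), and over the single libraries left out its log2 difference was 2.39 to 4.32 and its adjusted p 0.0233 to 0.239. Averaged over strains the count of 1 was 0 in female libraries alone and 0 with both shallow libraries left out, and 1 to 2 when each library was left out. The causes were not tested. The count was 0 under every alternative run for the other 4 comparisons and for the genes below the filter. Over all genes, APP-PS1 brain against blood had 13 calls and DESeq2 made 23, and the averaged comparison had 61. APP-PS1 against WT blood had 1 call, which was higher. The 5 CPM filter gave 7 there, all of them lower, and sex as a term and DESeq2 gave 0.

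These sign changes were all in fold changes that were not called. In females alone, APP-PS1 against WT blood gave -0.15 for Il7r, -0.26 for Jak1, 0.19 for Ifngr1, 0.50 for Il18r1 and -3.81 for Il10ra; APP-PS1 against WT brain gave 0.15 for Il2rb and 1.03 for Il10ra; APP-PS1 brain against blood gave -1.05 for Ifngr1; the average gave 0.30 for Il2rg and -0.43 for Ifngr1; and the difference between strains gave -1.24 for Ifngr1, -1.78 for Il18rap and 4.84 for Il10ra. With the 5 CPM filter and with no filter, APP-PS1 against WT blood gave -0.16 and -0.17 for Il7r and -0.20 and -0.21 for Jak1, APP-PS1 against WT brain -0.042 and -0.035 for Il2rg, and the average 0.024 and 0.018 for Il2rg; these filters also shifted the median of the genes tested in blood between strains to -0.31 and -0.32, against -0.046. With sex as a term, APP-PS1 against WT blood gave -0.15 for Il7r, 0.067 for Il2rg, -0.18 for Jak1 and 0.59 for Il18r1, and Il10ra was 0.19 in APP-PS1 against WT brain and -0.024 in APP-PS1 brain against blood. With both shallow libraries left out, APP-PS1 against WT blood gave 0.033 for Il18r1 and -0.053 for Jak1, APP-PS1 against WT brain -0.27 for Socs1 and 0.12 for Il10ra, the difference between strains -0.030 for Ifngr1, and the average 0.14 for Il2rg.

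Leaving out single libraries changed signs within these ranges. In APP-PS1 brain against blood they were -0.15 to 0.39 for Il2rg, -0.91 to 0.35 for Il18r1, -0.84 to 4.61 for Il10ra and -0.13 to 0.97 for Ifngr1, and for Il2rg averaged over strains -0.15 to 0.12. In APP-PS1 against WT brain they were -0.18 to 0.20 for Il2rg, -0.25 to 0.72 for Il18r1, -1.28 to 0.61 for Il10ra and -0.27 to 0.42 for Socs1. In APP-PS1 against WT blood they were -0.54 to 0.46 for Il7r, -0.87 to 0.034 for Il18r1, -3.66 to 1.25 for Il10ra and -0.066 to 0.16 for Jak1. For the difference between strains they were -0.0022 to 0.54 for Il2rg, -0.072 to 1.19 for Il18r1, -1.96 to 3.49 for Il10ra and -0.37 to 0.74 for Ifngr1.

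No paired analysis was possible because the labels give each library its own code and no number shared between groups. Depth limits Il10ra, Il21r and Socs1 most, since APP-PS1 blood holds 4, 0 and 4 counts of them in all.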
